A study of Homo sapiens with 6 samples.

Results

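In A549, an established line of human non-small cell lung cancer, ribosome footprints were set against input RNA gene by gene in cells that carried an shRNA against METTL16 and had been starved of amino acids for 2 h. METTL16 places m6A marks on U6 snRNA and on hairpins of the MAT2A mRNA. The ratio was taken for the protein-coding genes with at least 30 counts in both the footprint and the input library, which were 2002 of the 19954 protein-coding genes and of the 60648 genes of all kinds in the count table. Input RNA was broken chemically into pieces of 40 to 60 nt, and footprints of 30 nt were the pieces that ribosomes shielded from RNase I. The ratio was also taken, for the same genes, in the starved cells with a control shRNA (labelled as wild type) and in the METTL16 shRNA cells kept in complete medium. Cycloheximide, an inhibitor that freezes ribosomes on the mRNA, was given to all cells for 5 min, and the labels give stable knockdown lines without naming the shRNA sequence or the number of lines behind a library. No library of control shRNA cells in complete medium was used here.

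Each condition gave 1 footprint and 1 input library, so no value has a replicate spread and no p-value was computed. The intervals below are 95% exact conditional binomial (Clopper-Pearson) intervals of the counts. They cover counting error only, since PCR copies cannot be told from separate molecules. The starved METTL16 shRNA libraries held 518955 footprint and 465303 input counts, and the 6 libraries ranged from 465303 to 781831. Small RNAs took more of the footprint library than of the input, with snRNA at 14.1% against 4.05% and Y RNA at 14.6% against 2.28%, and nuclear protein-coding genes took 64.4% against 77.0%. METTL16 itself had 9 input counts in the starved METTL16 shRNA cells and 19 in complete medium, against 44 in the starved control cells, and 3, 7 and 60 footprints in the same order. It was therefore under the minimum here. Of 15 A549 and airway epithelial markers 8 passed the minimum, among them ALDH1A1, an aldehyde dehydrogenase, with 4209 footprint and 2241 input counts, and KRT8, a keratin of simple epithelia, with 469 and 495. The alveolar and airway markers NKX2-1, SFTPA1, SFTPB, SFTPC and SCGB1A1 were at 0 in both libraries. The 10 fibroblast markers summed to 9 footprints and 10 input counts, and the 10 leukocyte and erythroid markers to 12 and 7.

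A footprint to input ratio reads how many ribosomes sit on a gene's mRNA relative to how much of that mRNA there is, and is often called translation efficiency. Cells short of amino acids are known to slow protein synthesis through the kinase mTORC1, which controls above all the TOP mRNAs. These mRNAs encode ribosomal proteins and elongation factors, and begin at their cap with a C followed by a run of pyrimidines (C or T), the terminal oligopyrimidine tract. A separate switch, the iron response element, is a hairpin in the leader of the ferritin mRNAs that binds iron regulatory proteins when iron is scarce and holds back their translation. Each ratio below is log2 of footprints over input, less the median over the 1990 nuclear-encoded members, so that 0 is the typical gene and the length of the gene cancels.

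The ratio ran from -4.10 to 2.10 on the log2 scale, with 5% of members under -1.37 and 5% over 1.21, a span of 5.95-fold between those points. Its SD over genes was 0.79, where counting error alone gave 0.25. The median interval was 1.05 log2 units wide, at a median of 66 input and 68 footprint counts per gene. A gene was called high or low when it stood at least 2-fold from the median member and its interval excluded 0, which held for 181 genes on the high side (9.04%) and 199 on the low side (9.94%). The 2-fold cut alone gave the same 181 and 199 members, so the interval condition removed none of them. High calls made up 47.6% of all calls. That share was 37.0% with library totals as the scale, 64.0% with the totals of nuclear protein-coding genes and 80.4% with TMM factors, which moved the median gene by -0.09, 0.17 and 0.37, so the values below are relative to the median member. The low side reached further, with 34 genes beyond 4-fold against 3 on the high side.

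**Figure D1:**
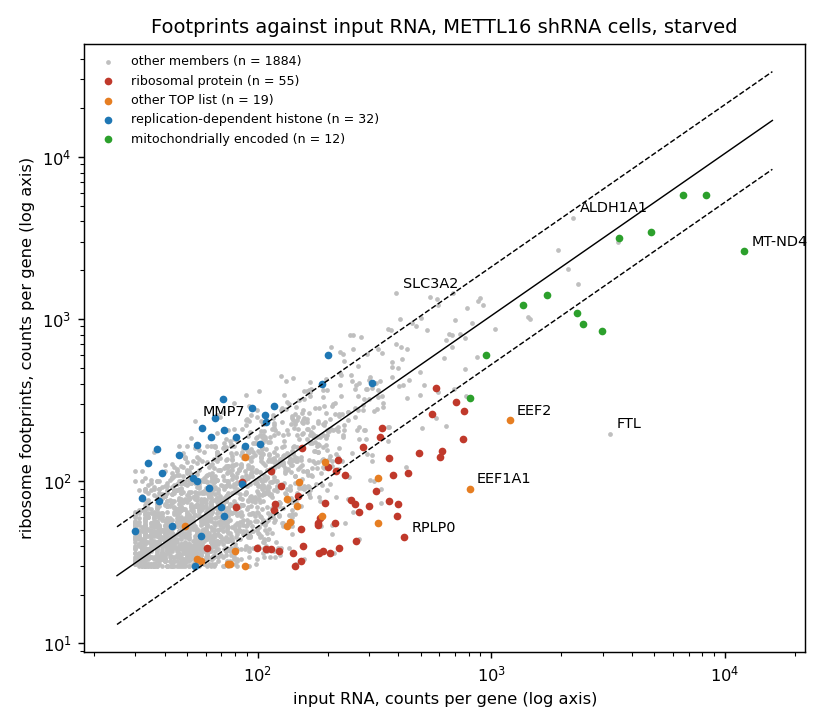
Footprint counts (vertical axis, log scale) against input counts (horizontal axis, log scale) in the starved METTL16 shRNA cells, 1 point per gene for the 2002 genes with at least 30 counts in both libraries. The solid line marks the median member, the dashed lines 2-fold either side of it and colours the gene lists, and FTL, at 196 footprints and 3220 input counts, lies furthest below it.

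Among the members, the gene with the fewest footprints for its RNA was FTL, the ferritin light chain, which stores iron. Some genes left out for having under 30 footprints, such as PABPC1, stood lower and are described below. It had 196 footprints on 3220 input counts, a ratio of -4.10 (-4.32 to -3.90), or 17.2-fold under the median gene. EEF1A1, the elongation factor that brings aminoacyl-tRNA to the ribosome, had 90 footprints on 808 input counts and a ratio of -3.23 (-3.56 to -2.92). RPLP0, a protein of the ribosomal stalk, had 45 on 424 and stood at -3.29 (-3.78 to -2.86). All 3 intervals lay wholly beyond a 4-fold deficit. EEF2, the translocation factor of elongation, had 238 on 1200, a ratio of -2.40 (-2.61 to -2.20). NAP1L1, a histone chaperone with a known TOP mRNA, had 55 on 327 and stood at -2.63. The other ribosomal proteins among the 12 lowest were RPS4X (61 footprints on 394 input counts, -2.75), RPS3 (72 on 399, -2.53), RPL32 (43 on 264, -2.67), RPL5 (39 on 224, -2.57) and RPS23 (36 on 204, -2.55). The 12 lowest thus held 6 ribosomal proteins, 3 other TOP mRNAs and ferritin. The remaining 2 encode chromatin proteins: CBX5, which encodes the heterochromatin protein HP1 alpha, had 44 on 271, a ratio of -2.68 (-3.18 to -2.23), and HMGA1, an architectural DNA-binding protein, had 36 on 212 and stood at -2.61.

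The first bases of these mRNAs are shown because the TOP tract is read there. Each line runs from 10 bases before the annotated start to the 20th base of the transcript, from RefSeq on GRCh38.p14. Capitals mark a C followed by at least 4 pyrimidines that begins within 5 bases of the start, on the strand of the gene.
FTL: acgtcCCCTCgcagttcggcggtcccgcgg
EEF1A1: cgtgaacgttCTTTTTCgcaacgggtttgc
RPLP0: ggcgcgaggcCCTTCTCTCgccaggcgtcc
EEF2: cgtcagcgttCTCTTCCgccgtcgtcgccg
NAP1L1: gctcttgggtCTTTTTTagcgccatctgct
RPS3: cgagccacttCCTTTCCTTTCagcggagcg
RPS23: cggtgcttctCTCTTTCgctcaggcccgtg
RPL32: acgacccatcagCCCTTgcgcgccaccgtc
RPS4X: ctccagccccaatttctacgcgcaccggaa
HMGA1: ctgggtcgctCTTTTTaagctcccctgagc
CBX5: ggcccCTCCTgttagcccagagggaaagaa
In EEF1A1, RPLP0, EEF2, NAP1L1, RPS3, RPS23 and HMGA1 the tract began at the annotated first base itself. In FTL and CBX5 the capitals lay wholly upstream of the start shown, in a pyrimidine run that reached further upstream. The transcript annotated there does not begin with the tract. RPS4X had no tract in this window. RPL32 and CBX5 have 3 annotated starts each and HMGA1 has 2, of which 1 is shown. RPL5 is named only.

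Of the 12 lowest genes, 10 of the 11 with an annotated start had the tract at 1 or more of their starts, and of the 12 highest 0 of 12 did. The 10 include FTL and CBX5, whose marked letters end before the start shown. Counted per start, the lowest genes had it at 68.8% of 16 starts. In RefSeq's promoter windows 25.2% of all 27305 genes had it at any of their starts, as did 31.5% of the 1646 members matched to them. The share was 22.8% among members called high (34 of 149) and 52.9% among members called low (82 of 155). Among ribosomal protein members it was 87.0% (40 of 46), and among the other TOP mRNAs 84.6% (11 of 13). Genes called low outside both groups had it in 38.6% (44 of 114), with 1.81 annotated starts per gene against 1.49 over all members. Counted per start, their share was 23.3% against 23.7% over all members, which include the ribosomal and other TOP genes. A share per start over the members outside both groups was not computed. Within the ribosomal and other TOP members, the 51 with the tract had a median ratio of -1.64 and the 8 without it -0.87. Among the remaining members the 468 with the tract had a median of -0.07 and 9.40% low calls, and the 1119 without it 0.05 and 6.26%. A match of these letters describes the sequence and does not show that the start is used in A549 cells.

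FTL also carries the letters of the iron response element in its leader, shown on the next line with the loop in capitals, at chr19:48965333-48965358 on the plus strand of GRCh38.p14, with the first base of the loop 39 bases from the annotated start.
FTL leader: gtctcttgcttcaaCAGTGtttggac
The loop letters CAGTG alone occurred on the gene's strand in the first 50 bases of 8.09% of genes and on the opposite strand in 7.55%. The longer run CAACAGTG occurred on the gene's strand in 35 genes (0.128%), of which FTL, H2BC5 and TGIF1 were members. On the opposite strand it occurred in 33 genes (0.121%), so this run was not more frequent on the gene's strand to any extent that matters here. FTH1, the ferritin heavy chain and the partner of FTL in the ferritin shell, was under the minimum with 22 footprints on 347 input counts, a ratio of -4.02 (-4.74 to -3.42). The 25 pseudogenes named after FTH1 held 16 footprints and 20 input counts. They were not added, and with them its ratio would lie nearer 0. Of 15 genes of iron, polyamine and related metabolism listed for known control through the mRNA, 7 were members with a median of -0.53. Of these 0 were called high and 2 low, against 9.04% and 9.94% over all members. The second was AZIN1, antizyme inhibitor, with 33 on 99 and a ratio of -1.64 (-2.27 to -1.07), which with the input of complete medium was -0.55 and no longer a call. Another 4 of the 15 had enough input but under 30 footprints, and all 4 were called low, as were 694 of all 994 such genes. Over the 11 listed genes with 30 counts in either library the median was -1.30. TFRC, the transferrin receptor that takes up iron, had 333 footprints on 269 input counts and stood at 0.24 (0.01 to 0.48). FTL thus stood far below TFRC, whose interval began just above the median gene.

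At the other end stood several genes for membrane and secreted proteins, in a ranking that leaves out histone and mitochondrially encoded genes. The histone genes H4C8 (2.10) and H3C3 (2.00), described below, lay as high. SLC3A2, the heavy chain shared by several amino acid transporters, had 1439 footprints on 391 input counts and a ratio of 1.81 (1.65 to 1.98), or 3.51-fold above the median gene. MMP7, a secreted matrix metalloproteinase, had 234 on 54 and stood at 2.04 (1.62 to 2.50). TECR, an enzyme of fatty acid elongation in the endoplasmic reticulum (ER), had 151 on 36 and stood at 1.99 (1.47 to 2.57). The membrane proteins EMP3 (305 on 79, 1.88), TM4SF4 (256 on 67, 1.86) and BCAP31 (340 on 89, 1.86), the last of them an ER chaperone for cargo, followed closely. STT3A and RPN2, subunits of the enzyme that attaches glycans to new proteins in the ER, had 266 footprints on 71 input counts and 360 on 101, with ratios of 1.83 and 1.76. SPP1, the secreted osteopontin, had 444 on 126 (1.75), LGALS3BP, a secreted galectin partner, had 674 on 207 (1.63), and MGST1, a membrane-bound glutathione transferase, had 795 on 249 (1.61). The intervals of these genes overlapped one another, so their order within the top is not resolved. PSMB3, a subunit of the proteasome core, was also among these 12, with 249 on 69 and a ratio of 1.78.

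The starts of 4 of these genes are given for comparison with the tracts above, in the same window and from the same source.
SLC3A2: gccagaagccagttgcaaccggtttctgaa
MMP7: agcagaaaacaccaaatcaaccataggtcc
SPP1: ggttgtcagcagcagcaggaggaggcagag
STT3A: ggctcctgccagggttgggtgcgccgctga
None of the 4 holds a C followed by 4 pyrimidines within 5 bases of its start.

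The ratios at both ends changed when input of another condition was used. This alternative sets starved footprints against RNA from complete medium, so RNA differences between the media enter the ratio. It therefore cannot show whether the ratio within the starved cells is reliable. When the input of METTL16 shRNA cells from complete medium stood in place of the starved input, 8 of the 12 highest were still called high. All 12 of the 12 lowest were still called low. The 4 that lost the call were MGST1 at 0.98, LGALS3BP at 0.99, STT3A at 0.80 and BCAP31 at 0.72. SLC3A2 stood at 1.04 on that scale. Low ratios came nearer 0 as well, with NAP1L1 at -1.37, EEF2 at -1.60, RPL32 at -1.77, EEF1A1 at -2.51 and FTL at -3.59. Input counts of SLC3A2 were 391 starved and 1105 in complete medium, and those of BCAP31 were 89 and 327, in libraries of 465303 and 775676 counts.

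**Figure D2:**
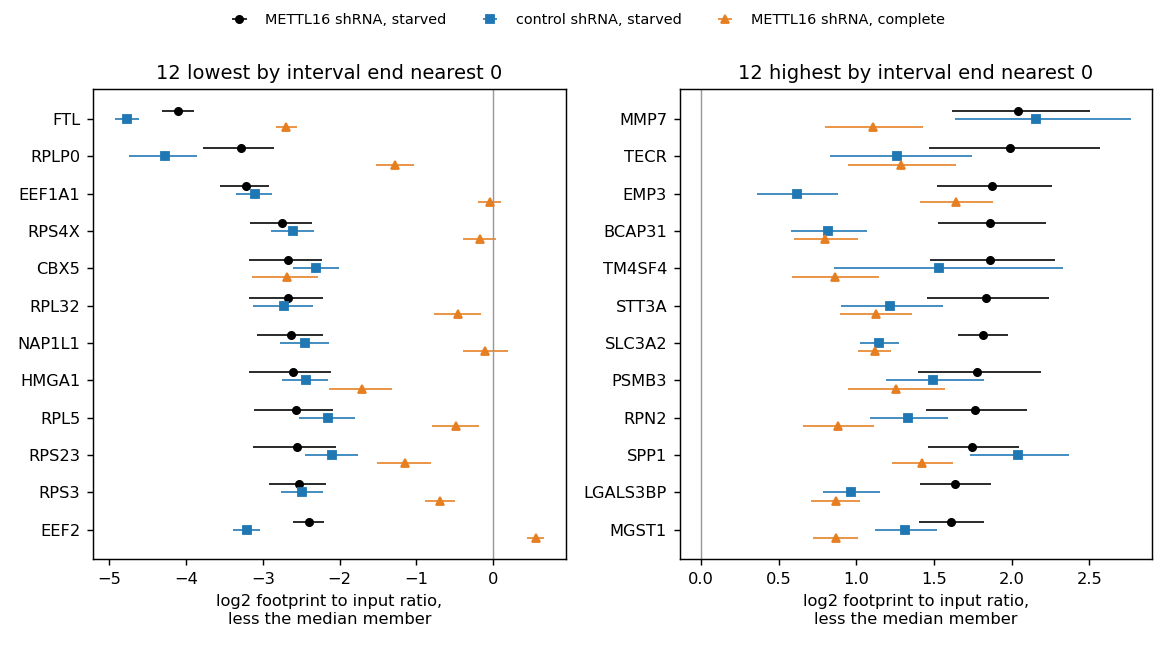
Log2 ratio of footprints to input, less the median member, for the 12 lowest genes (left) and the 12 highest genes (right), ranked by the interval end nearest 0. Points give each condition's own ratio, bars the 95% counting interval, and in complete medium EEF1A1 and NAP1L1 lie at the median gene while FTL and CBX5 stay far below it.

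The ribosomal proteins lay low as a group. Of 36 measured proteins of the large subunit 26 were called low and 0 high, with a median of -1.82, and all 36 had a ratio under 0. Of 19 proteins of the small subunit 13 were called low and 0 high, with a median of -1.45. The other TOP mRNAs, which encode elongation factors, initiation factor subunits and similar proteins, gave 12 low calls and 0 high among 19, with a median of -1.33. Over all members 9.94% were called low. Members of the ribosome that lay near the typical gene were FAU, with 99 footprints on 86 input counts (0.14, -0.29 to 0.57), and RPL27, with 160 on 155 (-0.02, -0.35 to 0.31). FAU encodes a ubiquitin-like protein fused to a ribosomal protein. Both intervals lay wholly above that of RPS3 (-2.92 to -2.17), so ribosomal protein mRNAs did not share a single ratio. IMPDH2, an enzyme of guanine nucleotide synthesis listed with the TOP mRNAs, was at 0.05 (-0.54 to 0.64), and COX4I1, a respiratory chain subunit in the same list, was highest in it with 141 on 88 (0.61, 0.22 to 1.01).

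The minimum of 30 counts kept out further ribosomal protein genes that had few footprints. In the table were 47 genes of the large and 33 of the small subunit, of which 9 and 11 had enough input but under 30 footprints, and 9 and 10 of these were called low. Of 29 other TOP genes 7 were in that position, and all 7 were called low, as were 694 of all 994 such genes. Few footprints set these genes apart, so their low ratios are in part how they were chosen. With these genes taken in, the medians were -1.86 over 45 genes, -1.80 over 30 and -1.37 over 26. Ribosomal protein genes have many near-identical pseudogenes, and the way reads with several matching places were counted is not given in the sources used here. The 1297 pseudogenes named after these genes held 134 footprints and 321 input counts, against 5852 and 17467 at the genes, and adding them to the genes changed no call. A count near 0 is therefore not read as absence.

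The factors that start translation were spread on both sides of the typical gene. Of 15 measured initiation factors, 3 were called low and 1 high, with a median of -0.12. Another 4, EIF3H (-1.35), EIF3L (-1.35), EIF2S3 (-1.33) and EIF3E (-1.14), stand among the other TOP mRNAs and were called low. With them 7 of 19 were low, against 9.94% over all members. EIF1, which guards start codon choice, had 122 footprints on 434 input counts, a ratio of -1.89 (-2.20 to -1.60). EIF4G2, a relative of the cap-binding scaffold that is known to start at a GUG codon, had 336 on 782 and stood at -1.28 (-1.47 to -1.10). With the input of complete medium EIF4G2 was at -0.87, which ends its call. EIF4A3, a helicase of the exon junction complex named among the factors by its family, had 115 on 32 and stood at 1.76 (1.20 to 2.39). The 16 cytosolic aminoacyl-tRNA synthetases, which charge tRNAs, had a median of 0.28 and no call in either direction.

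The genes of the amino acid response were close to the typical gene. The list holds ATF4, the transcription factor made when amino acids run short, together with its targets. Of its 18 measured genes 1 was called high and 2 low, against 9.04% and 9.94% over all members, with a median of -0.03. ATF4 itself, whose leader holds upstream reading frames, had 33 footprints on 79 input counts, a ratio of -1.31 (-1.96 to -0.72). MTHFD2, a mitochondrial folate enzyme, had 39 on 81 and stood at -1.11 (-1.71 to -0.55), or -0.76 with the input of complete medium. The third of the genes called was SLC3A2, described above. MAT2A, which makes S-adenosylmethionine and whose mRNA METTL16 binds, had 149 footprints on 77 input counts and a ratio of 0.88 (0.48 to 1.30), above the median gene but under the 2-fold threshold. The 4 measured genes of the methionine cycle gave 0 calls.

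Only 3 of 20 genes listed for the extrinsic death receptor pathway, named in the title of the series, had enough counts. TNFRSF10B, the TRAIL receptor DR5, had 45 footprints on 73 input counts and a ratio of -0.76 (-1.33 to -0.21). TNFRSF21, the receptor DR6, had 37 on 110 and was called low at -1.63 (-2.22 to -1.09). TNFRSF1A, the main TNF receptor, had 163 on 190 and stood at -0.29 (-0.60 to 0.02), which did not differ from the median gene beyond counting error. With the input of complete medium TNFRSF10B was at -1.42 and TNFRSF1A at -0.90. Another 2 listed genes had enough input but under 30 footprints. Of these 1 was called low, CFLAR, with 21 on 47 (-1.21, -2.05 to -0.46), as were 694 of all 994 such genes. Over the 6 listed genes with 30 counts in either library the median was -0.75.

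Of the lists counted, the histones gave the most high calls. Of 32 measured replication-dependent histone genes 18 were called high and 0 low, with a median of 1.08, against 9.04% high over all members. H4C8 had 321 footprints on 71 input counts, a ratio of 2.10 (1.74 to 2.50), and H3C3 had 157 on 37, a ratio of 2.00 (1.49 to 2.58). The lowest was H2BC18, with 30 on 54 and a ratio of -0.90 (-1.61 to -0.24). Of the 62 histone genes listed, 8 more had enough footprints but under 30 input counts, 22 were under the minimum in both, and 13 of these had no count. Histone copies are nearly identical in sequence, so the split of reads between them is uncertain, and replication-dependent histone mRNAs are short and end without a poly(A) tail. The median histone gene in the list was 782 bases long, against 5197 over all members.

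Of 23 measured proteasome subunits 8 were called high, 15 were not called and 0 were low, with a median of 0.80, against 9.04% high over all members. Besides PSMB3, PSMC5, an ATPase of the regulatory cap, had 116 footprints on 40 input counts and a ratio of 1.46 (0.94 to 2.03). PSMD11 of the lid, with 120 on 115, stood at the median gene (-0.01, -0.39 to 0.38). Among 5 measured subunits of RNA polymerase II 2 were called high and 3 were not called, with a median of 0.73. The chaperonin TRiC, which folds actin and tubulin, and its partner prefoldin had a median of 0.03 over 8 genes and no call.

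Genes of the secretory route and the lysosome were spread widely, and their high calls below stand against 9.04% over all members. Of 18 measured autophagy and lysosome genes 7 were called high and 1 low, with a median of 0.72. PSAP, the precursor of the saposins that help degrade sphingolipids, had 1364 footprints on 547 input counts, a ratio of 1.25 (1.11 to 1.40), and LAMP1, a membrane protein of lysosomes, had 199 on 67, a ratio of 1.50 (1.10 to 1.93). CTSD, the protease cathepsin D, had 37 on 118 and stood at -1.73 (-2.31 to -1.20), so that proteins of the same organelle lay on opposite sides of the typical gene. Among 16 ER folding genes 5 were called high and 0 low, with a median of 0.50, and HSPA5, the ER chaperone BiP, had 776 on 276 and a ratio of 1.42 (1.23 to 1.63). With the input of complete medium in place of the starved input, PSAP was at 0.59, LAMP1 at 0.41 and HSPA5 at 0.62, all under the 2-fold call. Of 22 genes for the ER translocon and signal recognition 5 were called high and 0 low, with a median of 0.15. Of 15 matrix genes 3 were called high and 1 low: TIMP1, an inhibitor of metalloproteinases, had 149 on 48 (1.56, 1.09 to 2.07), while its relative TIMP2 had 48 on 115 (-1.32, -1.84 to -0.83). TIMP1 was at 0.60 with the input of complete medium.

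The medians of nuclear and mitochondrial genes of the respiratory chain lay on opposite sides of 0. The 38 nuclear-encoded genes of oxidative phosphorylation had a median of 0.53, with 6 called high and 0 low. Over all members 9.04% were called high and 9.94% low. UQCRQ, a subunit of complex III, had 98 footprints on 35 input counts (1.41, 0.85 to 2.02), and ATP5F1E, a small subunit of ATP synthase, had 39 on 63 (-0.75, -1.37 to -0.16). The 12 mitochondrially encoded genes had a median of -0.66, with 5 called low and 0 high, beside the same shares over all members. MT-ND4 had 2627 on 12146, a ratio of -2.28 (-2.34 to -2.21), and MT-ND1, another subunit of complex I, had 3176 on 3543, a ratio of -0.22 (-0.29 to -0.15). Mitochondrial ribosomes are not stalled by cycloheximide, and their footprints can differ in size from cytosolic ones, so the level of these 12 genes is not set on a par with nuclear genes. The median of the 12 moved between -1.21 and -0.29 over the alternatives.

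Other lists held single genes far from the typical one. Among 14 heat shock chaperones HSPA8, the constitutive chaperone HSC70, had 212 footprints on 505 input counts and a ratio of -1.32 (-1.56 to -1.08), while the small heat shock protein HSPB1 had 306 on 133 (1.13, 0.84 to 1.44). The list's median was 0.02, with 2 called high and 1 low, against 9.04% and 9.94% over all members. PRDX1, a peroxide-reducing enzyme among 26 targets of the stress factor NRF2, had 656 on 256 (1.29, 1.08 to 1.51). PCNA, the sliding clamp of DNA replication, had 435 on 142 (1.55, 1.27 to 1.83), and the glucose transporter SLC2A1 had 141 on 49 (1.45, 0.98 to 1.96). On the low side stood the nucleolar helicase DDX21, with 39 on 126 (-1.75, -2.32 to -1.23), the actin crosslinker FLNA, with 102 on 303 (-1.63, -1.98 to -1.31), and the mitotic survivin gene BIRC5, with 33 on 85 (-1.42, -2.06 to -0.84). With the input of complete medium SLC2A1 was at 0.64 and HSPA8 at -0.99, and these and DDX21 lost their calls. Of 20 immediate early genes 2 were called high and 0 low, and of 10 NF-kB targets and cytokines 0 high and 1 low. Their medians were -0.13 and -0.14, and the same shares over all members stand beside these counts. Another 5 NF-kB genes had enough input but under 30 footprints, and all 5 were called low, as were 694 of all 994 such genes. Over the 17 NF-kB genes with 30 counts in either library the median was -0.50. The 11 measured keratin, vimentin and cadherin genes gave no call.

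**Figure D3:**
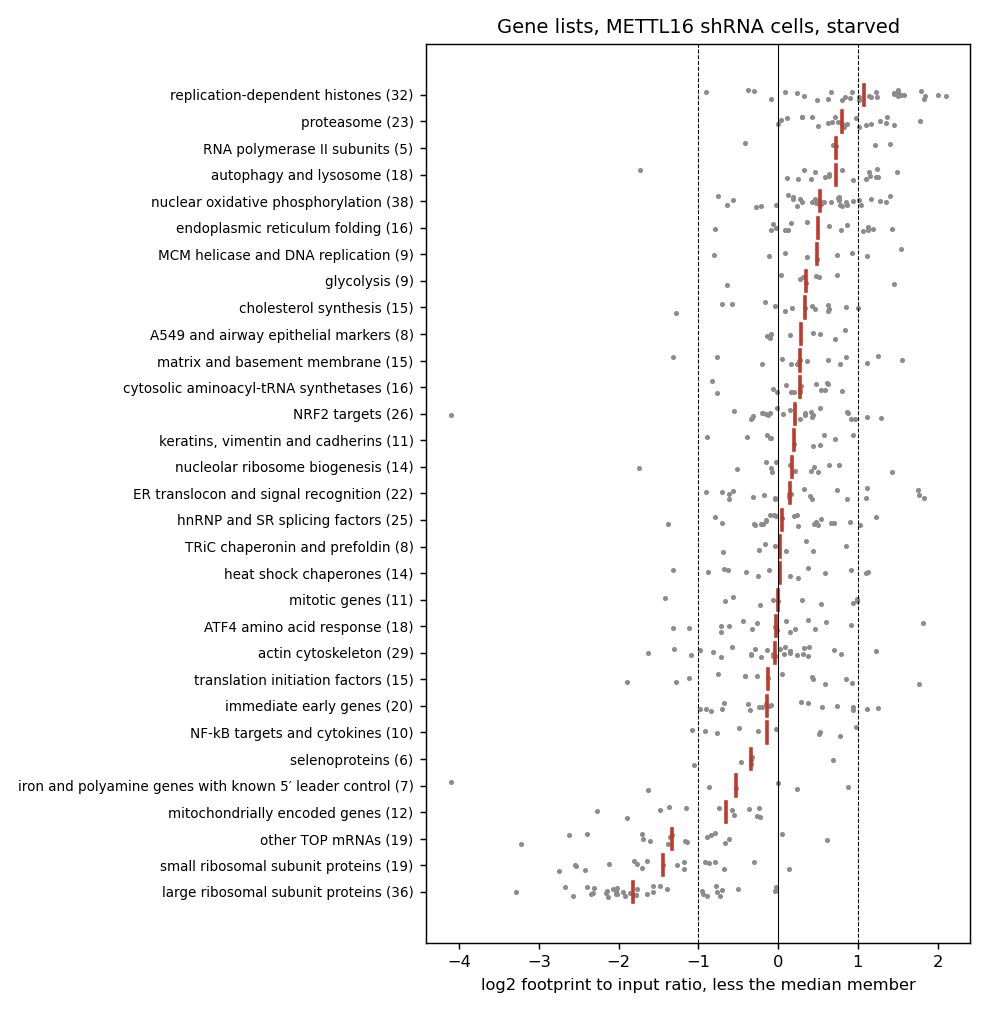
Log2 ratio of footprints to input, less the median member, for the measured genes of each list in the starved METTL16 shRNA cells, 1 point per gene, with the list's median as a red bar and dashed lines at 2-fold. The 3 lists of ribosomal and other TOP genes have medians of -1.82, -1.45 and -1.33, and the histone list has a median of 1.08.

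Most calls fell outside the lists, as did most members, whose exact share in no list was not counted. Of the 199 low genes 39 were ribosomal, 12 other TOP and 5 mitochondrially encoded, and 122 were in no list. Of the 181 high genes 18 were histones, and 111 were in no list. Gene length moved with the ratio. The 501 members with the shortest genes, 207 to 3264 bases, had a median of 0.32 with 93 high and 31 low calls, and the 501 with the longest, 8054 to 38874 bases, had -0.26 with 13 and 63. Across the 2002 genes Pearson's r between the ratio and log2 gene length was -0.25 and Spearman's rho -0.27, and without the ribosomal and other TOP genes they were -0.29 and -0.30 over 1928 genes. These points share 2 libraries, and genes are not independent replicates. Footprints lie on coding sequence while input reads and the length in the table cover the whole gene, untranslated ends and all annotated exons included, and the part of this in the ratios was not tested. High genes had a median length of 3197 bases and low genes 6270. The large ribosomal subunit list had a median length of 3843 bases. In the other conditions r with log2 length was -0.20 in both.

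**Figure D4:**
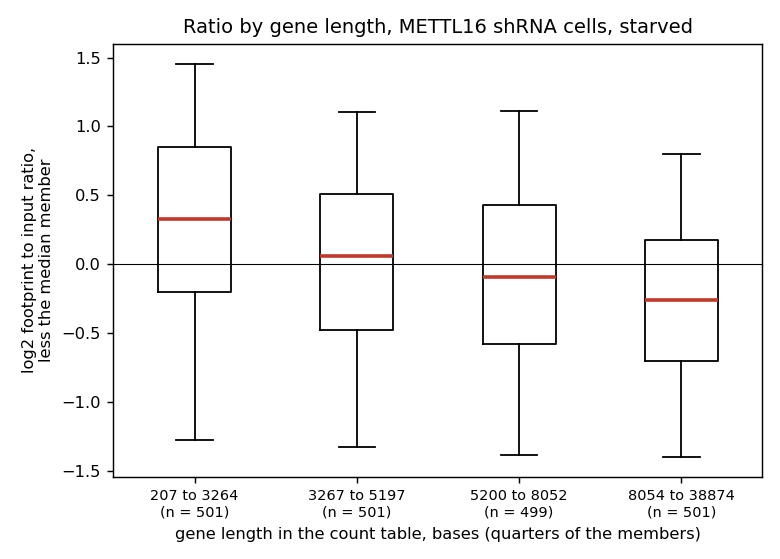
Log2 ratio of footprints to input, less the median member, in the 2002 members, split by gene length in bases into groups of 499 to 501 genes. Boxes span the 25th to the 75th percentile of genes with the median as a line, whiskers run from the 5th to the 95th percentile, and the medians step down from 0.32 to 0.06, -0.09 and -0.26.

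The minimum itself shaped the low calls. Among the members with 30 to 46 input counts 0 of 524 were called low, since a gene needs more input to fall 2-fold with 30 footprints left, and among those with 115 or more 111 of 500 were. Under the minimum stood 994 genes with enough input and fewer than 30 footprints, of which 694 were called low, and 462 genes with enough footprints and fewer than 30 input counts, of which 187 were called high. These directions follow from the way the genes were set apart. The furthest was PABPC1, the poly(A)-binding protein and itself a TOP mRNA, with 9 footprints on 492 input counts, a ratio of -5.76 (-6.98 to -4.90). RPS12 had 13 on 316 (-4.62, -5.59 to -3.87), and BPTF, a chromatin remodelling factor, had 9 on 231 (-4.67, -5.90 to -3.80). EIF4EBP2, a repressor of cap-dependent translation, had 0 footprints on 62 input counts, and PROC, the protein C precursor, 0 on 61, so only the upper limits of their intervals, -4.09 and -4.07, can be given. On the other side KRT85, a hair keratin, had 186 footprints on 5 input counts, and TNFSF9, a ligand of the TNF family, 62 on 8 (2.81, 1.82 to 4.16). The 80 members whose lower count was exactly 30 had a median of -0.20 (range -2.31 to 1.87), and the 79 genes at 29, just outside, had -0.16 (-2.44 to 1.53).

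Long noncoding RNAs (lncRNAs) mostly had low ratios. Of 26 genes labelled lncRNA with at least 30 input counts 25 were called low, with a median of -2.12. By the same filter on input alone 893 of 2996 protein-coding genes (29.8%) were called low. The remaining gene, RNY5, a Y RNA by its symbol, was called high with 52206 on 9774 (2.35). The nuclear MALAT1 had 1261 footprint-library counts on 3143 input counts, a ratio of -1.38 (-1.48 to -1.29), and NEAT1 had 90 on 301 (-1.80, -2.16 to -1.46). NORAD, a cytoplasmic lncRNA, had 5 on 131 (-4.65, -6.42 to -3.52). Of the protein-coding members 96 lay below MALAT1 and 45 below NEAT1. FTL, EEF1A1 and RPLP0 lay wholly below both nuclear RNAs. In METTL16 shRNA cells in complete medium MALAT1 was at -0.13 and not called, while NEAT1 (-1.04) and NORAD (-4.58) were called low.

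The same 2002 genes were then read in the other conditions, each on its own 2 libraries and with its own median. Across genes the ratio had Pearson's r of 0.79 and Spearman's rho of 0.76 with the starved control cells, and 0.59 and 0.60 with the METTL16 shRNA cells in complete medium. Without the ribosomal and other TOP genes the values were 0.76 and 0.74, and 0.65 and 0.63, over 1928 genes. All points share gene length, sequence and mapping. Of the 199 genes called low here, 139 were also called low in the starved control cells (69.8% of the 199 and 47.0% of the 296 there, which were 14.8% of members) and 86 in complete medium (43.2%, and 35.2% of 244, which were 12.2% of members). Of the 181 high genes, 80 were also high in the starved control cells (44.2%, and 47.3% of 169, which were 8.44% of members) and 51 in complete medium (28.2%, and 36.7% of 139, which were 6.94% of members). The starved METTL16 shRNA libraries serve both of these readings.

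The ribosomal protein genes were low in both starved conditions and nearer the typical gene in complete medium. The large subunit had a median of -1.82 in the starved METTL16 shRNA cells, -1.66 in the starved control cells and -0.06 in METTL16 shRNA cells in complete medium, with 26, 27 and 3 low calls. The small subunit stood at -1.45, -1.54 and -0.18, and the other TOP mRNAs at -1.33, -1.09 and 0.30. Against complete medium, 33 of 36, 17 of 19 and 16 of 19 genes of these lists had an interval wholly lower when starved, and 0 wholly higher, where over all members 10.7% were lower and 10.1% higher. Against the starved control cells 3, 0 and 4 were wholly lower and 6, 3 and 2 wholly higher, where over all members 4.80% were lower and 6.94% higher. EEF1A1 was at -3.23 and -3.11 in the starved cells and -0.05 in complete medium, and EEF2 at -2.40, -3.21 and 0.55. RPLP0 stood at -3.29 starved with the METTL16 shRNA, -4.27 starved with the control shRNA and -1.27 in complete medium, so its interval was higher here than in the control cells.

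Other genes were low in every condition. FTL had -4.10 here, -4.77 in the starved control cells and -2.70 in complete medium, and CBX5 had -2.68, -2.30 and -2.68. CTSD had -1.73, -2.82 and -2.89, and TNFRSF21 -1.63, -1.29 and -1.91. EIF4G2 had -1.28, -1.20 and -1.36, values whose intervals overlapped throughout.

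The high genes varied with condition in another way. MMP7 was at 2.04 here, 2.16 in the starved control cells and 1.11 in complete medium. SLC3A2 was at 1.81, 1.15 and 1.12, BCAP31 at 1.86, 0.82 and 0.80, and LGALS3BP at 1.63, 0.96 and 0.87, with the interval here above both others in each. These genes were named for being highest here, so a lower value elsewhere is in part how they were chosen. Of the 18 autophagy and lysosome genes 10 had an interval wholly higher here than in complete medium and 1 wholly lower, where 10.1% and 10.7% of all members were. Against the starved control cells 3 were higher and 1 lower, where 6.94% and 4.80% of all members were. LAMP1 was at 1.50, 1.35 and 0.38. The proteasome had medians of 0.80, 0.86 and 0.69 in the 3 conditions, with 1 of 23 intervals wholly lower than in complete medium (10.7% of all members), and nuclear oxidative phosphorylation 0.53, 0.53 and 0.52. Histones were at 1.08, 0.98 and 0.66. Heat shock chaperones were at 0.02, 0.34 and 0.76, with 8 of 14 wholly lower here than in complete medium (10.7% of all members), HSPA8 among them at -1.32, -0.84 and 0.45. GAPDH, a glycolytic enzyme, was at -0.64, -1.06 and 1.03 on 586 footprints and 874 input counts here. With 1 library per condition, starvation, shRNA and library cannot be told apart.

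**Figure D5:**
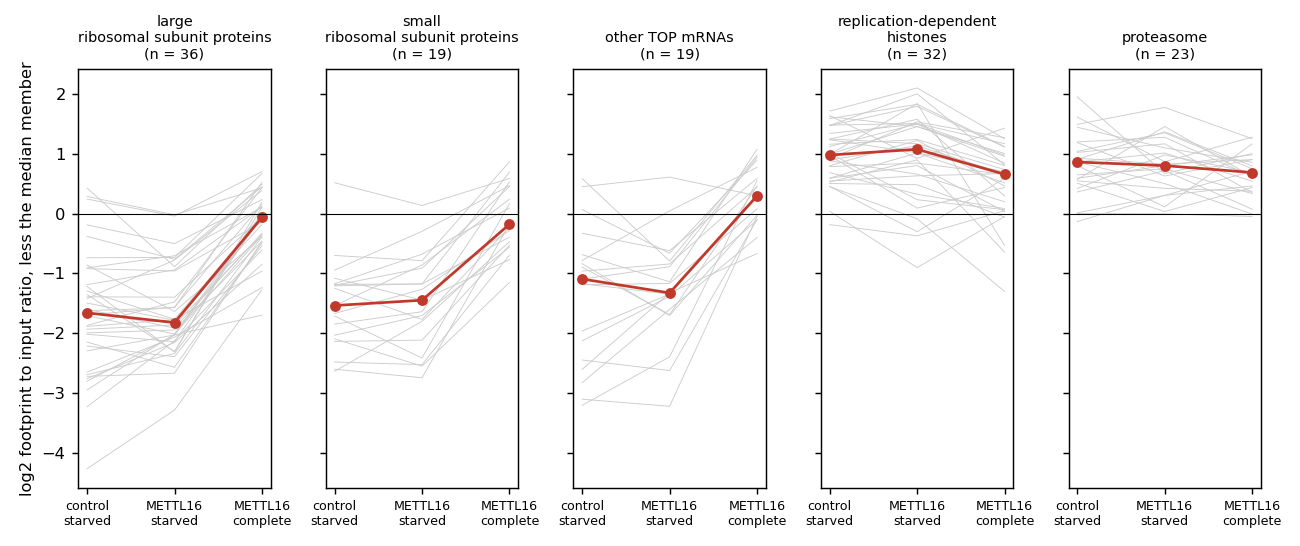
Log2 ratio of footprints to input, less each condition's median member (vertical axis), for the measured genes of 5 lists in the starved control shRNA cells, the starved METTL16 shRNA cells and the METTL16 shRNA cells in complete medium. Grey lines join the values of 1 gene and red points give the list's median, which for the large ribosomal subunit is -1.66, -1.82 and -0.06.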

How the data were processed

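Members and gene lists were chosen with earlier results of these data known. The libraries were made by the submitters from A549 cells, with chemical fragmentation for input and RNase I for footprints, per the labels' protocols. GRCh38 is the build, and featureCounts 2.0.1, STAR 2.7.5c, Bowtie2 2.2.5 and cutadapt 2.8 the tools, per the submitters' processing notes. Strand and multi-mapping settings are not given in the sources used here. The authors deposited raw counts per gene, which were used as they stand, and 3 broken lines were left out. They also deposited TPM values and an efficiency of translation. When checked, the deposited TPM equals count over gene length, scaled to the sum over the table (within 1% for 10066 genes), and the deposited efficiency is the ratio of footprint to input TPM, so it served only as an alternative.

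The computed ratio was log2((footprints + 0.5)/(input + 0.5)) less its median over nuclear-encoded members, with a minimum of 30 counts in both libraries. Named genes were the 12 highest and 12 lowest by the interval end nearest 0, mitochondrial and histone genes left out, the 2 extremes of each list, METTL16, MAT2A, the death receptor genes, and those furthest outside the minimum. FTH1, EIF3E, SDC1 and the lncRNAs were added after their values were seen. A few genes named by this rule are not reported here. All 38 lists were counted, beside 9.04% high and 9.94% low calls over all members. Those not described are m6A factors (4 measured, 0 high, 1 low), mTORC1 (4, 1, 0), cholesterol synthesis (15, 1, 1), glycolysis (9, 1, 0), splicing factors (25, 2, 1), nucleolar biogenesis (14, 1, 1), DNA replication (9, 2, 0), mitotic genes (11, 0, 1), tubulins (4, 1, 0), actin cytoskeleton (29, 1, 3) and selenoproteins (6, 0, 1). TMM factors came from edgeR 4.0.16 in R 4.3.3, and all else from pandas 2.3.3, numpy 2.4.6, scipy 1.17.1 and matplotlib 3.10.9 in Python 3.11.15. Promoters came from RefSeq on GRCh38.p14.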

Additional observations from a re-analysis of the deposited data

Results flagged for a closer look

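2 members were called in opposite directions in the METTL16 shRNA cells when starved and in complete medium. EIF3E, a subunit of initiation factor 3, had 70 footprints on 148 input counts and a ratio of -1.14 (-1.58 to -0.73) when starved, and 219 on 122 with 1.08 (0.75 to 1.41) in complete medium. SDC1, the cell surface proteoglycan syndecan-1, had 148 on 68 and a ratio of 1.05 (0.63 to 1.49) when starved, and 97 on 254 with -1.15 (-1.51 to -0.81) in complete medium. In the starved control shRNA cells EIF3E was at -0.69 (-1.05 to -0.32) and SDC1 at 0.16 (-0.12 to 0.45). The intervals do not overlap between starved and complete medium, and the difference itself was not tested, since each condition has 1 library per assay.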

How the results depend on the processing

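No paired analysis was possible because each condition has 1 footprint and 1 input library and the labels give no replicate numbers. Over 169 results and 11 alternatives, 1473 of 1769 values stayed within the counting interval or within 1.5 times the count, 296 moved further and 0 called genes changed sign. The deposited efficiency, a pseudocount of 5 and added pseudogene counts reuse nearly the same values, and each left all 169 in place. The most values moved with no minimum (80), the complete-medium input (76) and TMM factors (64). The alternative that scales input by the coding share of each gene was not run, because no protein lengths were used here. The numbers called high and low were 405 and 99 with TMM factors, 553 and 639 with a minimum of 10 counts, 28 and 34 with a minimum of 100, 1397 and 1207 with no minimum, and 585 and 708 with 30 counts in either library, an alternative chosen after seeing the data. More or fewer genes entered under the last 4. The small ribosomal subunit median was -1.08 with TMM factors. The histone median was 1.61 with no minimum and 1.48 with 30 counts in either library. The median of the mitochondrially encoded genes was -0.75 with library totals, -0.49 with protein-coding totals, -0.29 with TMM factors, -0.49 with a minimum of 10, -0.74 with a minimum of 100, -0.30 with no minimum, -1.21 with the complete-medium input and -0.41 with 30 counts in either library. These 12 genes have the narrowest intervals and are left out of the median that sets the scale. With the complete-medium input 87 of the 181 high genes and 127 of the 199 low genes were called again. ZFP36, an mRNA decay factor not called here, went from -0.97 to 1.22. Its input counts were 128 starved and 46 in complete medium, and the cause was not tested. Adding pseudogene counts, also chosen after seeing the data, gave 181 and 199, and the deposited efficiency 183 and 201. Depth limits the list of genes: 2002 passed the minimum, and at the median member a ratio under 2-fold is near the width of its own interval.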
